A study of Mus musculus with 22 samples.

Results

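Haemoglobin is built from alpha-type and beta-type globin chains, and the genes described here are those that encode the embryonic and the adult chains of the mouse, with the little used theta globin. There are 8 of them among the 48709 genes counted in these heart ventricles: Hbb-y and Hbb-bh1 (embryonic beta-type), Hba-x (embryonic alpha-type, or zeta), Hbb-bs and Hbb-bt (adult beta), Hba-a1 and Hba-a2 (adult alpha) and Hbq1b (theta). They were chosen by their measured levels, selected on the contrast of LIN9 KO with LIN9 wt ventricles in the first of 2 experiments, so the values of that contrast are given as a description without a test. All 8 had a row in both count tables.

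The values are reads per gene from sequencing of polyadenylated RNA of ventricles at E13.5, in midgestation. LIN9 is a subunit of the MuvB core, which activates or represses transcription depending on its partners, and Sav1 is a scaffold of the Hippo kinases. Every embryo carried Nkx2.5-Cre, whose recombinase acts in cardiac precursor cells, so a blood cell is not a stated target of either deletion. LIN9 KO ventricles had both Lin9 alleles floxed, and LIN9 wt ventricles, which the labels call wild-type, carried a floxed beside a normal Lin9 allele as the controls of the study are described, so the controls also held Cre and a deletable allele. Sav1 KO ventricles had both Sav1 alleles floxed. In the first experiment LIN9 wt was compared with LIN9 KO on a normal Sav1 background, and the second repeated both genotypes and added Sav1 KO and the double knockout, each with 3 libraries, which makes 6 groups and 18 libraries. Library totals ran from 9485599 to 9615274 counts in the first experiment and from 2770741 to 2999877 in the second.

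Red blood cells fill their cytoplasm with haemoglobin, a tetramer of alpha-type and beta-type chains that each hold a haem group. Primitive red cells arise in the yolk sac, make the embryonic chains and mature while they circulate, and definitive red cells from the fetal liver make adult chains and gradually replace them. Around midgestation both kinds circulate together, and primitive red cells also contain adult chains, above all adult alpha, so embryonic and adult transcripts are both found in the blood of an embryonic heart.

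The members lie in both globin loci (GRCm38 coordinates of GENCODE M21). On chromosome 11, Hba-x, Hba-a1, Hbq1b and Hba-a2 span 20.9 kb from 32276400 to 32297298, and on chromosome 7, Hbb-bt, Hbb-bs, Hbb-bh1 and Hbb-y span 40.7 kb from 103812524 to 103853216. The promoter table used here, made from RefSeq (GRCm38.p6), held 7 of the 8 (not Hbb-bh1), and 4 are shown because their genes moved together while differing in how far they moved: an embryonic and an adult chain from each locus. Each is the 250 bases before the RefSeq start, 5' to 3' on the gene's strand, in lower case, with capitals for 5 short motifs or their reverse complements: CACCC (the box bound by KLF factors), CCAAT (the box bound by NF-Y), GATAA (the motif of GATA factors), TATAA (the core of the TATA box) and TTTGAA (the CHR, a motif known from MuvB targets). The windows are chr7:103853208-103853457 and chr7:103827929-103828178 on the minus strand and chr11:32276350-32276599 and chr11:32296242-32296491 on the plus strand.
Hbb-y: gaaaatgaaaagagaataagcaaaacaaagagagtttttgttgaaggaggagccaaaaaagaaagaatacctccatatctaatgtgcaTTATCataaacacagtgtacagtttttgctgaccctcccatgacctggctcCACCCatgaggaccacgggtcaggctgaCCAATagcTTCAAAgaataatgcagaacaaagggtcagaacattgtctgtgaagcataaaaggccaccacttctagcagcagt
Hba-x: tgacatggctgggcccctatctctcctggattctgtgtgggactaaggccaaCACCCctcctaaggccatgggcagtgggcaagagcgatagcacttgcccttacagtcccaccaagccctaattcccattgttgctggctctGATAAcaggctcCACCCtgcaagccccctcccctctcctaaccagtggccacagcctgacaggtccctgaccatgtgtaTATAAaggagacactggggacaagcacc
Hbb-bs: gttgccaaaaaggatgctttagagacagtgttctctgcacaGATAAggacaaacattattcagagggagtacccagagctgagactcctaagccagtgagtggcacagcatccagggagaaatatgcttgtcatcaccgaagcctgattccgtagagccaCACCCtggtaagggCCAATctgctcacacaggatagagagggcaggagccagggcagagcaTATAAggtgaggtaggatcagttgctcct
Hba-a2: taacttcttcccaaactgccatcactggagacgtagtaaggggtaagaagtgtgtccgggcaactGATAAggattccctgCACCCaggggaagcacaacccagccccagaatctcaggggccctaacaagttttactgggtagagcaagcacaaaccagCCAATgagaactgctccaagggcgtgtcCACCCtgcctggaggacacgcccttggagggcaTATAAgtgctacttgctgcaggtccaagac
The GENCODE gene began 9, 200, 168 and 3 bases upstream of the RefSeq start in these 4 genes, in the order shown, so the Hba-x and Hbb-bs windows include bases that GENCODE assigns to a longer transcript. CACCC stood in the windows of 6 of the 7 members, as against 52.0% of 32851 promoters of the same length, CCAAT in 6 of 7 (33.8% of all), GATAA in 6 of 7 (22.6%) and TATAA in 6 of 7 (22.8%). In Hbb-bs, CACCC began 90 bases, CCAAT 76 bases and TATAA 29 bases before the start. Hba-x held no CCAAT in this window and Hbb-y no TATAA. The letters TTTGAA were found in Hbb-y alone, 75 bases before the start on the opposite strand, and in 16% of all promoters. These are matches of letters, with no measurement of binding.

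Some of these genes cannot be separated by short reads. Of all 75-base windows of its transcript, Hba-a1 shared 62.2% with Hba-a2, and Hba-a2 shared 81.0% with Hba-a1. Hbb-bs shared 64.3% with Hbb-bt and Hbb-bt 56.6% with Hbb-bs, and Hbq1b shared 31.6% with Hbq1a, while Hba-x, Hbb-y and Hbb-bh1 shared none. How reads were split within each adult pair is therefore uncertain, and the summed pair is given beside the single genes for the LIN9 comparisons of the second experiment. How reads that match both copies were counted is not stated. Levels, shares and ratios that use the adult chains depend on it, also when the copies are summed.

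The transcripts of the targeted genes were far from gone in the knockouts, and the counts cover the whole gene, undeleted exons included. In the first experiment Lin9 stood at 29.8, 21.4 and 25.6 CPM (TMM-normalised, scaled by library size) in LIN9 wt and at 21.4, 21.3 and 19.2 CPM in LIN9 KO. In the second it was 29.2, 28.1 and 23.2 CPM in the controls, 13.1, 15.4 and 17.9 CPM in LIN9 KO, 19.2, 31.4 and 25.6 CPM in Sav1 KO and 23.5, 26.04 and 18.5 CPM in the double knockout. LIN9 KO libraries of the second experiment were all below their controls, whereas the double knockout overlapped Sav1 KO, so that the gene-level count did not separate those groups. Sav1 was 54.5, 56.1 and 61.9 CPM in the controls, 43.0, 36.1 and 43.0 CPM in Sav1 KO and 43.9, 40.5 and 42.3 CPM in the double knockout, all of the latter below the 47.3 to 51.9 CPM of LIN9 KO. By edgeR only Lin9 in LIN9 KO with Sav1 wt was called lower (log2 fold change -0.80, adjusted p 0.00269, 3 of 3 libraries lower). Lin9 in the double knockout against Sav1 KO (-0.16, adjusted p 0.586) and Sav1 in Sav1 KO with LIN9 wt (-0.50, adjusted p 0.317) and with LIN9 KO (-0.23, adjusted p 0.465) were not called.

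Haemoglobin transcripts took a several-fold larger part of every LIN9 KO library. In the first experiment the 8 genes held 1.11, 0.785 and 0.925% of all counts in LIN9 wt and 8.64, 4.61 and 3.52% in LIN9 KO. The libraries of the second experiment gave 0.544, 0.421 and 0.433% in the controls and 2.13, 3.10 and 3.75% in LIN9 KO, without overlap in either experiment. Sav1 KO libraries held 0.361, 0.330 and 0.431%, which overlapped the controls, and double knockouts 3.10, 1.93 and 1.04%, above every Sav1 KO library and overlapping LIN9 KO. The group means of the second experiment were 0.466% ± 0.0677 (SD, n = 3) in the controls, 2.99% ± 0.816 in LIN9 KO, 0.374% ± 0.0518 in Sav1 KO and 2.02% ± 1.03 in the double knockout. Counting error was small beside this spread, since the 95% Wilson interval reached at most 0.0178 percentage points to either side in the first experiment and 0.0224 in the second, and it covers counting error alone. The mean share was 5.95 times the control's in the first experiment, 6.42 times in the second and, for the double knockout against Sav1 KO, 5.40 times. A share also depends on the RNA of all other cells in the ventricle. In bulk tissue, changes in red blood cell number, in haemoglobin RNA per cell and in the amount of other RNA cannot be told apart. Within a group the amount differed most where LIN9 was deleted. The highest double knockout library held 2.97 times the share of the lowest. For LIN9 KO this ratio was 2.45 in the first experiment and 1.76 in the second. For LIN9 wt it was 1.41 in the first experiment, 1.29 in the controls of the second and 1.31 in Sav1 KO.

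**Figure D1:**
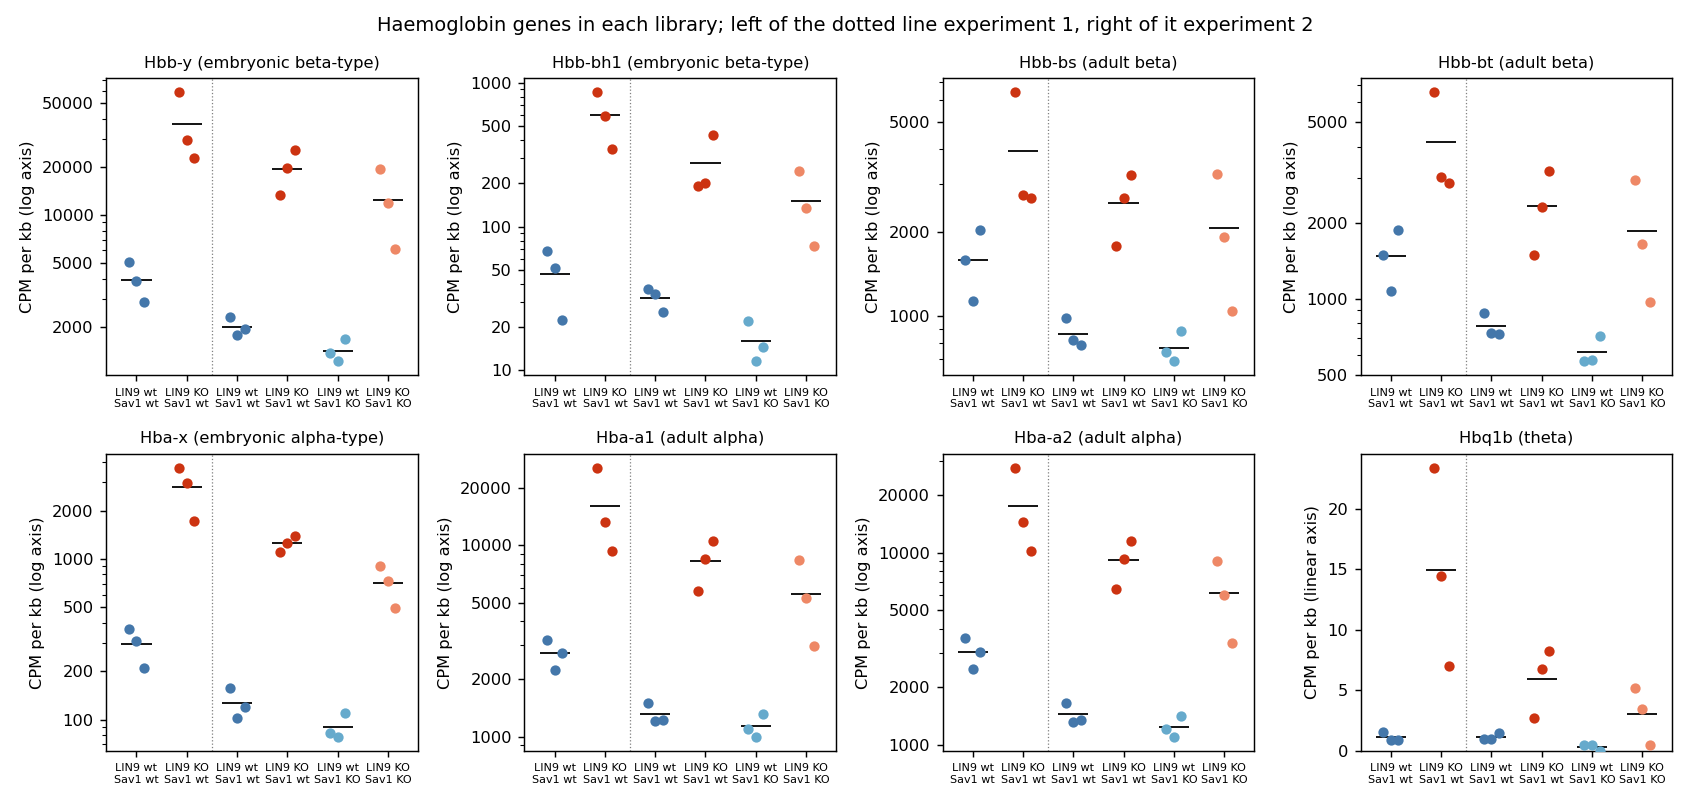
Level of each haemoglobin gene in each library, in CPM per kb of exonic length on a log axis (Hbq1b on a linear axis from 0); points are libraries and lines the mean of 3. LIN9 KO libraries stood above the LIN9 wt libraries of their experiment and Sav1 background for all 8 genes.

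All 8 genes passed the filter of a mean above 1 count, and in the second experiment each was past the threshold (adjusted p under 0.05 in the quasi-likelihood test of edgeR, by the Benjamini-Hochberg method over 17675 genes) as higher in LIN9 KO than in the controls. Among all genes tested, 12.7% were called higher in this comparison. Every LIN9 KO library exceeded every control library for 8 of 8 members, as did 18.3% of all genes. Between the double knockout and Sav1 KO, again 8 of 8 members were called higher, with 11.8% of all genes, and 8 of 8 did not overlap, with 21.9% of all genes. The count of members called there was less firm: it was 5 without Sav1 KO replicate 3 or without double knockout replicate 1, and 6 with only the 6 libraries compared or with a replicate block. With Sav1 wt it stayed at 6 to 8 when 1 library was left out. The median log2 fold change of the members was 2.66 with Sav1 wt and 2.64 with Sav1 KO, beside 0.01 and 0.03 over all genes tested.

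Hbb-y (ENSMUSG00000052187) encodes epsilon-y, the chief embryonic beta-type chain of midgestation. In the second experiment its level was 2291, 1770.3 and 1926 CPM per kb of exonic length in the controls and 13326, 19590.5 and 25586 CPM per kb in LIN9 KO. Sav1 KO libraries had 1366, 1214 and 1675 CPM per kb and double knockouts 19365, 11949 and 6171 CPM per kb. The lowest library with LIN9 KO was thus above the highest with LIN9 wt, whichever the Sav1 genotype. By edgeR, the log2 fold change was 3.29 (SE 0.43, adjusted p 0.000732) in LIN9 KO against the controls and 3.14 (SE 0.43, adjusted p 0.000953) in the double knockout against Sav1 KO, with all 3 knockout libraries higher each time. In the first experiment, which selected the gene, the level was 5069, 3851 and 2853 CPM per kb in LIN9 wt and 58905, 29530.1 and 22680.1 CPM per kb in LIN9 KO.

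Hbb-bh1, the other embryonic beta-type chain, was much rarer. Its CPM per kb was 36.9, 34.1 and 25.4 in the controls, 191, 201 and 433 in LIN9 KO, 21.9, 11.6 and 14.5 in Sav1 KO and 242, 135.5 and 73.1 in the double knockout. All libraries with LIN9 KO were again above all with LIN9 wt. The log2 fold change was 3.09 (SE 0.54, adjusted p 0.00348) with Sav1 wt and 3.23 (SE 0.61, adjusted p 0.00548) with Sav1 KO, higher in 3 of 3 libraries in both.

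Hba-x encodes zeta, the embryonic alpha-type chain, from the other locus. Its level was 157, 102 and 120.1 CPM per kb in the controls, 1099.7, 1248 and 1399 CPM per kb in LIN9 KO, 82.1, 77.7 and 110.5 CPM per kb in Sav1 KO and 902, 725 and 493 CPM per kb in the double knockout. It was the member with the narrowest spread among LIN9 KO libraries, which did not overlap the double knockouts. With log2 fold changes of 3.31 (SE 0.26, adjusted p 2.19e-05) and 2.97 (SE 0.26, adjusted p 4.45e-05) in the Sav1 wt and Sav1 KO backgrounds, it was higher in 3 of 3 libraries in both. First-experiment levels were 367, 309 and 209.6 CPM per kb in LIN9 wt and 3703, 2958 and 1714 CPM per kb in LIN9 KO.

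The adult alpha genes rose by less. Hba-a1 had 1499, 1201 and 1226 CPM per kb in the controls, 5743, 8489 and 10494 CPM per kb in LIN9 KO, 1092, 993 and 1314 CPM per kb in Sav1 KO and 8408, 5322 and 2976 CPM per kb in the double knockout. Its log2 fold change was 2.65 (SE 0.38, adjusted p 0.00129) with Sav1 wt and 2.30 (SE 0.38, adjusted p 0.0027) with Sav1 KO. Hba-a2, its near-identical copy, gave 2.66 and 2.31. With the counts of both copies summed, which avoids the split between them, the log2 fold change was 2.66 (adjusted p 0.00109) and 2.30 (adjusted p 0.00228), higher in 3 of 3 libraries in both backgrounds.

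The adult beta genes rose least. Hbb-bs stood at 981, 815 and 784 CPM per kb in the controls and at 1791, 2671 and 3212 CPM per kb in LIN9 KO. In Sav1 KO it had 738, 685 and 882 CPM per kb, and in the double knockout 3256, 1926 and 1039 CPM per kb, the last of these only slightly above the highest control library. Log2 fold changes were 1.57 (SE 0.39, adjusted p 0.0204) with Sav1 wt and 1.43 (SE 0.39, adjusted p 0.0302) with Sav1 KO for Hbb-bs, and 1.59 (SE 0.41, adjusted p 0.0246) and 1.60 (SE 0.41, adjusted p 0.0244) for Hbb-bt, each higher in 3 of 3 libraries. Summing the copies gave 1.58 (adjusted p 0.0219) and 1.50 (adjusted p 0.0271). These calls lay close to the threshold. With a replicate block the adjusted p was 0.0529 for Hbb-bt with Sav1 wt, and 0.0671 for Hbb-bs and 0.0569 for Hbb-bt with Sav1 KO, and with only the 6 libraries compared it was 0.0993 and 0.0748 with Sav1 KO. They were also lost when single libraries were left out. With Sav1 wt, leaving out any of the 3 controls or LIN9 KO replicate 2 or 3 put the adjusted p of Hbb-bs between 0.0513 and 0.0796 and that of Hbb-bt between 0.062 and 0.0921. With Sav1 KO, leaving out any Sav1 KO replicate or double knockout replicate 1 or 2 (and, for Hbb-bs, control replicate 2) put it between 0.05 and 0.102 for Hbb-bs and between 0.0541 and 0.0905 for Hbb-bt, and the log2 fold change without double knockout replicate 1 was 0.92 for Hbb-bs and 1.06 for Hbb-bt.

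Hbq1b encodes theta, an alpha-type chain of the adult locus whose use in haemoglobin is not established, and its counts were few. The second experiment gave 2, 2 and 3 raw counts in the controls, 6, 15 and 16 in LIN9 KO, 1, 1 and 0 in Sav1 KO and 11, 7 and 1 in the double knockout. LIN9 wt libraries thus hardly exceeded the filter on their own, with a mean of 1.5 counts over both Sav1 genotypes. Per total counts, LIN9 KO had 5.29 times the control level (37 against 7 counts, exact 95% counting interval 2.33 to 14.1), and the double knockout 9.84 times the Sav1 KO level (19 against 2 counts, 2.37 to 87.2). Both intervals pool the libraries of a group and cover counting error alone, not the spread between embryos. The adjusted p was 0.00533 at a log2 fold change of 2.35 with Sav1 wt and 0.0132 at 3.07 with Sav1 KO. By CPM 3 of 3 libraries were higher in both, but double knockout replicate 3 and Sav1 KO replicates 1 and 2 each had 1 count, so that with Sav1 KO the lack of overlap rests on library size alone (0.356 against 0.336 and 0.337 CPM). The second of these calls was lost without Sav1 KO replicate 3 or double knockout replicate 1 (adjusted p 0.0642 to 0.103, log2 fold change 2.41 to 2.57).

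**Figure D2:**
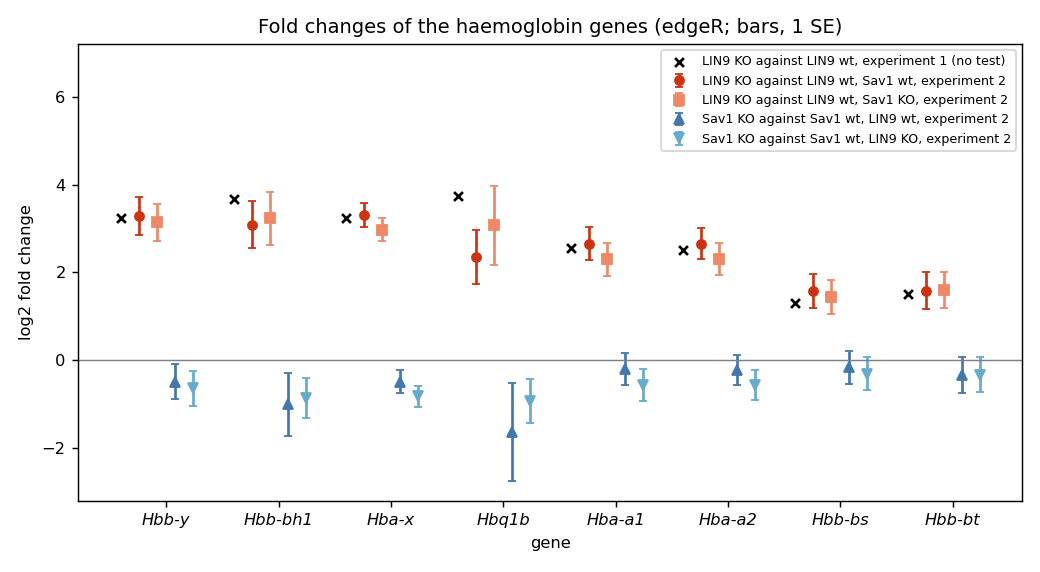
Log2 fold changes of the 8 genes with 1 SE from edgeR in the second experiment, for LIN9 KO in both Sav1 backgrounds and for Sav1 KO in both LIN9 backgrounds; crosses are the first experiment, which selected the genes. Embryonic chains lay between 2.97 and 3.67, adult alpha between 2.30 and 2.66 and adult beta between 1.31 and 1.60 in the LIN9 comparisons, and all Sav1 values were below 0.

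Grouped by chain, the LIN9 effect fell into the same order in all 3 LIN9 comparisons, of which that of the first experiment selected the genes. Embryonic chains were 8.50 to 9.89 times higher in LIN9 KO with Sav1 wt and 7.84 to 9.37 times higher with Sav1 KO. Adult alpha chains were 6.30 to 6.31 and 4.91 to 4.95 times higher, and adult beta chains 2.97 to 3.00 and 2.70 to 3.02 times higher. In the first experiment the values were 9.44 to 12.7 times for embryonic, 5.72 to 5.88 times for adult alpha and 2.49 to 2.82 times for adult beta chains. The comparisons of the second experiment use different libraries from those of the first and from each other, but share 1 estimate of the spread.

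The order of the levels themselves changed little. By mean CPM per kb in the controls of the second experiment it ran Hbb-y (1996 ± 267, SD, n = 3), Hba-a2 (1441 ± 190.1), Hba-a1 (1309 ± 165), Hbb-bs (860.1 ± 106), Hbb-bt (776 ± 85.1), Hba-x (126 ± 27.8), Hbb-bh1 (32.1 ± 5.99) and Hbq1b (1.10 ± 0.289). Hba-a2 and Hba-a1 overlapped, as did Hbb-bs and Hbb-bt, and all other neighbours were apart. Order within each adult pair also depends on exonic length (667 bases for Hba-a2, 812 for Hba-a1, 703 for Hbb-bt, 768 for Hbb-bs). By raw counts the mean ratio of Hba-a2 to Hba-a1 was 0.904 in these controls. In LIN9 KO of the second experiment the order was the same, with 19501 ± 6131 CPM per kb for Hbb-y, 9090.01 ± 2549 for Hba-a2, 2558 ± 717 for Hbb-bs and 1249 ± 149.6 for Hba-x, and with the same overlapping pairs. Double knockouts kept this order too, with Hbb-y at 12495 ± 6614 CPM per kb and overlaps from Hbb-y through Hbb-bt, and so did Sav1 KO, where Hbb-y (1418 ± 234) also overlapped Hba-a2 (1240.1 ± 156). LIN9 wt of the first experiment had this order as well, with Hbb-y overlapping Hba-a2. LIN9 KO there had Hbb-bt (4169 ± 2108) above Hbb-bs (3942 ± 2159), with overlaps from Hbb-y through Hba-a1 and from Hbb-bt through Hba-x. The mean ratio of raw Hbb-bt to Hbb-bs counts in that group was 0.981.

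Ratios of counts within a library need no scaling by its depth. Embryonic over adult beta counts (Hbb-y and Hbb-bh1 over Hbb-bs and Hbb-bt) came to 1.08, 1.00 and 1.11 in the controls, 3.53, 3.41 and 3.49 in LIN9 KO, 0.912, 0.838 and 0.909 in Sav1 KO and 2.71, 2.90 and 2.67 in the double knockout. None of these 4 groups overlapped another. First-experiment ratios were 1.43, 1.52 and 0.633 in LIN9 wt, where replicate 3 stood below the others, and 3.95, 4.50 and 3.59 in LIN9 KO. The mean log2 ratio was higher in LIN9 KO by 1.71 with Sav1 wt and by 1.64 with Sav1 KO, and by 1.84 in the first experiment (1.44 without replicate 3 of LIN9 wt), against an SD between replicates of at most 0.0746 in the groups of the second and of 0.71 in LIN9 wt of the first. Hbb-y alone made up 50.7% ± 1.41 of beta-type counts in the controls, 76.6% ± 0.205 in LIN9 KO, 46.4% ± 1.12 in Sav1 KO and 72.6% ± 0.854 in the double knockout (SD, n = 3).

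In the second experiment this beta ratio varied less within a genotype than the amount of haemoglobin did. Among double knockouts the share of counts ran from 1.04 to 3.10% while the ratio stayed between 2.67 and 2.90, and the double knockout with 1.04% of counts had a ratio of 2.67. LIN9 wt of the first experiment, at 1.11, 0.785 and 0.925% of counts, had ratios of 1.43, 1.52 and 0.633, and there the ratio varied more than the share. The ratio was lower in Sav1 KO libraries in both backgrounds, by a mean log2 difference of -0.26 with LIN9 wt and -0.33 with LIN9 KO, each without overlap but each smaller than the SD of 0.71 in LIN9 wt of the first experiment. As a sum over chosen genes the ratio was given no test.

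Hba-x over adult alpha counts rose less steeply: 0.0632, 0.0516 and 0.0594 in the controls, 0.115, 0.0895 and 0.0809 in LIN9 KO, 0.0454, 0.0474 and 0.0517 in Sav1 KO and 0.066, 0.0817 and 0.0986 in the double knockout. Knockouts of LIN9 were above their controls without overlap, by a mean log2 difference of 0.70 with Sav1 wt, 0.75 with Sav1 KO and 0.78 in the first experiment (0.0688, 0.0836 and 0.0462 against 0.0888, 0.137 and 0.112). In each of the 3 LIN9 KO groups the library with the largest share of haemoglobin counts had the lowest Hba-x ratio: 0.0888 at 8.64%, 0.0809 at 3.75% and 0.066 at 3.10%. In both LIN9 KO groups of the second experiment it fell from library to library as the share rose.

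**Figure D3:**
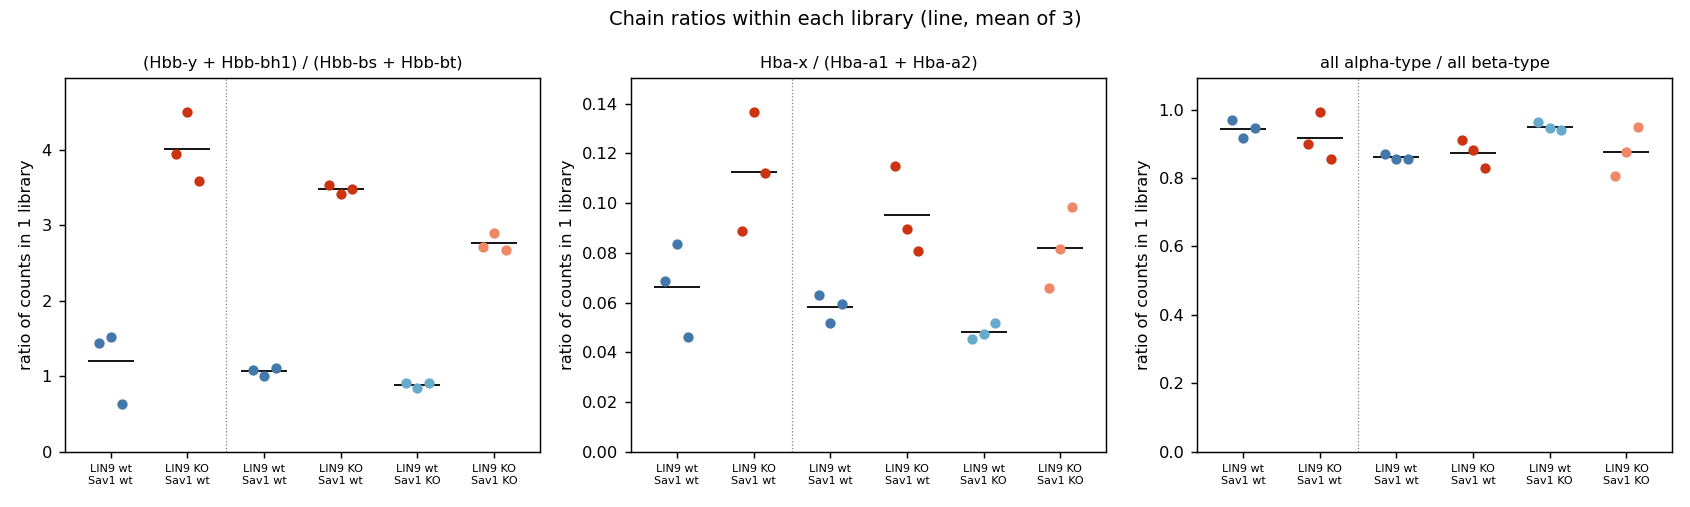
Ratios of raw counts within each library for embryonic over adult beta chains, Hba-x over adult alpha chains and all alpha-type over all beta-type chains, on axes from 0; points are libraries and lines the mean of 3. The beta ratio separated all 4 groups of the second experiment, while the alpha-type to beta-type ratio stayed between 0.805 and 0.992 in all 18 libraries.

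All alpha-type over all beta-type counts differed less between LIN9 KO and LIN9 wt than the chains within each type. The ratio was 0.870, 0.854 and 0.856 in the controls and 0.911, 0.881 and 0.828 in LIN9 KO, a mean log2 difference of 0.02 that lay within the spread. Double knockouts (0.805, 0.876 and 0.949) overlapped Sav1 KO (0.964, 0.947 and 0.939), with a mean log2 difference of -0.12. Sav1 KO libraries were above the controls, by 0.14 on the log2 scale, whereas double knockouts overlapped LIN9 KO, with a mean log2 difference of 0.003. In LIN9 wt and LIN9 KO of the first experiment the mean ratios were 0.945 ± 0.0258 and 0.916 ± 0.0692 (SD, n = 3).

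The remaining ratios concern rare or near-identical genes. Hbb-y over Hbb-bh1 ranged from 51.9 to 132 over the 18 libraries and overlapped between LIN9 KO and LIN9 wt in the second experiment, where the mean log2 difference was 0.24 with Sav1 wt and -0.11 with Sav1 KO, although it was lower by -0.56 in LIN9 KO of the first. Hba-a2 over Hba-a1 was 0.904 ± 0.00567 in the controls and 0.908 ± 0.0133 in LIN9 KO, and Hbb-bt over Hbb-bs 0.827 ± 0.0183 and 0.821 ± 0.0814 (SD, n = 3), both overlapping. Hbb-bt over Hbb-bs overlapped for Sav1 KO with LIN9 KO as well (mean log2 difference 0.01) but not in the other comparisons, with 0.17 for LIN9 KO with Sav1 KO, 0.20 for LIN9 KO in the first experiment and -0.18 for Sav1 KO with LIN9 wt, and Hba-a2 over Hba-a1 was lower without overlap in LIN9 KO of the first experiment (-0.04). All of these come with the reservation that reads within these pairs cannot be assigned with certainty. Hbq1b over adult alpha counts was 0.000401 ± 0.000133 in the controls and 0.000321 ± 8.79e-05 in LIN9 KO.

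Sav1 deletion moved no member past the threshold. Of all genes tested, 0.017% were called in Sav1 KO against the controls, and 0 of 8 members by edgeR, with 0 at an unadjusted p under 0.05 (3.93% of all genes) and 0 by DESeq2. In the double knockout against LIN9 KO, 0.0113% of genes were called and 0 of 8 members by edgeR, with 1 (Hba-x) at an unadjusted p under 0.05, beside 11.8% of all genes, and the same gene among 77 called by DESeq2. Hba-x had a log2 fold change of -0.82 there (SE 0.24, edgeR adjusted p 0.234), lower in 3 of 3 libraries. The log2 fold changes of all 8 members were negative in both backgrounds, from -1.64 (Hbq1b) to -0.16 (Hbb-bs) with LIN9 wt and from -0.92 (Hbq1b) to -0.30 (Hbb-bs) with LIN9 KO, and only that of Hbb-bs changed sign, to 0.03, when double knockout replicate 3 was left out. Medians were -0.41 and -0.60, beside 0.00 over all genes in both. Groups did not overlap for 4 members with LIN9 wt (Hbb-y, Hbb-bh1, Hbb-bt and Hbq1b, all lower in Sav1 KO, as were 6.14% of all genes) and for 1 member, Hba-x, with LIN9 KO (lower, as were 7.87% of all genes). Hbq1b, with 2 counts in Sav1 KO and 7 in the controls, had a ratio of 0.282 (exact 95% counting interval 0.0286 to 1.48, for counting error alone).

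A difference of the LIN9 effect between the Sav1 backgrounds was not detected for any member. The interaction called 0% of the genes tested and 0 of 8 members by edgeR, with 0 members at an unadjusted p under 0.05 (6.52% of all genes) and 0 by DESeq2, which called 0 over all genes as well. Interaction values of the members lay between -0.36 (Hba-a1) and 0.72 (Hbq1b) on the log2 scale with SEs of 0.35 to 1.13. Intervals of 2 SE to either side ran from -1.04 to 0.37 for Hba-x, the narrowest, and from -1.55 to 2.98 for Hbq1b, so differences within these bounds were not resolved.

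Globins outside the list give a comparison. Hbb-bh0, a globin-like transcript between Hbb-y and Hbb-bh1, rose with its neighbours: 1.66, 3.42 and 1.38 CPM in the controls, 9.52, 15.1 and 11.5 CPM in LIN9 KO, with a log2 fold change of 2.46 (edgeR adjusted p 0.00223, 3 of 3 libraries higher), and 2.91 with Sav1 KO (adjusted p 0.00349). Hbq1a, the copy of Hbq1b, had at most 2.98 CPM in the second experiment and was called with Sav1 wt (log2 fold change 3.40, adjusted p 0.0199) but not with Sav1 KO (2.81, adjusted p 0.0815). Its LIN9 KO libraries overlapped the controls, and the call was lost without control replicate 2 or 3 or LIN9 KO replicate 3 (2.70 to 2.96). Over all libraries left out in turn, its log2 fold change with Sav1 wt ran from 2.70 to 5.25. With a mean of 0.333 counts in LIN9 wt libraries it passed the filter only through LIN9 KO libraries (3.83), so the call could go in 1 direction only. Hbb-bh2 had 0 to 0.704 CPM there and was not tested. Myoglobin (Mb), the oxygen-binding globin of heart muscle, went the other way, with 426, 324 and 349 CPM in the controls and 118, 134 and 93.5 CPM in LIN9 KO (log2 fold change -1.67, adjusted p 7.37e-05, lower in 3 of 3 libraries) and -2.12 with Sav1 KO. Cygb was called lower with Sav1 KO (-1.01, adjusted p 0.0382), a call lost without any one Sav1 KO or double knockout library (-1.14 to -0.92), and not with Sav1 wt (0.00). Ngb, with 0 to 2.84 CPM and most in double knockout replicate 3, was called in neither. It passed the filter only through LIN9 KO libraries, with 0 to 8 counts there and 0 to 3 in LIN9 wt libraries of the second experiment.

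Red blood cells hold more than haemoglobin, and genes of their membrane and skeleton were called higher in 13 and lower in 1 of 16 with Sav1 wt, and higher in 11 and lower in 2 of 16 with Sav1 KO (median log2 fold changes 1.69 and 1.45, all genes 0.01 and 0.03). Over all genes, 12.7% were called higher and 10.5% lower with Sav1 wt, and 11.8% higher and 11.6% lower with Sav1 KO, and the counts of this and the following lists stand beside these shares. All these lists were chosen with earlier results of these data known, so their counts are a description. Slc4a1, the band 3 anion exchanger, rose from 32.2, 31.2 and 29.4 CPM in the controls to 206, 157 and 271 CPM in LIN9 KO (log2 fold change 2.77, adjusted p 3.37e-06), and by 2.73 with Sav1 KO. Rhd, a blood group antigen, was called in both backgrounds (1.60 with Sav1 wt and 2.43 with Sav1 KO). Lower were Tmod1, a tropomodulin also made in heart muscle (-0.76 and -0.89), and, with Sav1 KO, Sptb (-0.56), which was also the only gene of the lists that Sav1 KO raised with LIN9 wt (1.13, adjusted p 0.00907, 3 of 3 libraries), a call lost without control replicate 2 or 3 or any one Sav1 KO replicate (1.01 to 1.13). Epb41 was the most abundant gene of this list. Icam4, also in it, had 0 to 2 counts in LIN9 wt and 1 to 8 in LIN9 KO libraries of the second experiment. It passed the filter only through the latter, so it could be called in 1 direction only.

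Enzymes of haem synthesis and iron supply had smaller median log2 fold changes than the membrane and skeleton genes, a difference that was not tested. Their mean summed level was 612 CPM in LIN9 wt and 917 CPM in LIN9 KO of the first experiment. In the second it was 605 and 729 CPM with Sav1 wt, and 598 and 675 CPM with Sav1 KO. Of 12 tested, 3 were called higher and 1 lower in either background, with medians of 0.15 and 0.06; these included Cpox (0.91 and 0.65), Slc25a37 (0.72 with Sav1 wt), Fech (0.55 with Sav1 KO), Slc11a2 (-0.55 with Sav1 wt) and Steap3 (-1.01 with Sav1 KO), and Tfrc was the most abundant. Alas2, the erythroid enzyme of the first step, and Abcb10 had 0 counts in all 18 libraries. So did Actc1, the main actin of heart muscle, and a value of 0 in these tables is therefore not read here as absence of the transcript.

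Regulators and partners of globin genes were called higher in 6 and 4 of 11 (medians 0.91 and 1.01) and lower in none by edgeR. The smallest p-values belonged to Tal1 (0.91 and 1.03), Hemgn (4.19 with Sav1 wt) and Nfe2 (2.04 with Sav1 KO), and the most abundant gene was Ldb1. Hemgn had 2, 1 and 0 counts in the controls, and its log2 fold change ran from 3.67 to 5.01 with 1 library left out. Zfpm1 had 0 counts throughout, and Ahsp, the alpha chain's chaperone, had no row. Of genes for haemoglobin clearance and haem breakdown, 2 of 4 were called higher in both backgrounds (medians 1.52 and 1.17). They were Blvrb (1.06 and 0.87) and Hmox1, haem oxygenase, which rose from 17.9, 19.9 and 16.9 CPM in the controls to 71.2, 94.1 and 64.1 CPM in LIN9 KO (log2 fold change 2.07, adjusted p 7.6e-11, higher in 3 of 3) and by 1.82 with Sav1 KO. Each median lay between the values of Blvrb and Hpx. In the second experiment Hpx had 0 to 2 counts in LIN9 wt libraries and 0 to 4 in LIN9 KO libraries. Hpx passed the filter only through the latter, so it could be called in 1 direction only.

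Genes beside the globin loci were few. Of 5 tested, 2 were called higher in each background, with medians of 0.46 and 0.36 beside 0.01 and 0.03 over all genes: Rhbdf1 (0.56 and 0.36), the most abundant, Snrnp25 (0.46 with Sav1 wt, adjusted p 0.0457) and Trim30a (1.36 with Sav1 KO). The Snrnp25 call was lost without any one library except Sav1 KO replicate 3 (0.36 to 0.49), and that of Rhbdf1 with Sav1 KO without Sav1 KO replicate 3 or double knockout replicate 2 or 3 (0.26 to 0.37). Nprl3, which overlaps the enhancers of the alpha locus, had log2 fold changes of -0.25 and 0.02 and was not called. Mpg had 0 counts in every library.

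Markers of erythroid cells were higher along with haemoglobin, as were several macrophage markers, while ventricular markers were lower, and their part in its change was not tested. Of 8 tested erythroid markers other than globins, 8 were called higher with Sav1 wt and 5 with Sav1 KO (median log2 fold changes 2.81 and 2.16). Among the 8, Trim58 had a mean of 0.5 counts in LIN9 wt libraries and passed the filter only through LIN9 KO libraries (3.83), so it could be called in 1 direction only. Their sum was 44.2, 43.8 and 43.6 CPM in the controls, 265, 210.1 and 383 CPM in LIN9 KO, 33.6, 38.5 and 39.9 CPM in Sav1 KO and 240.1, 198 and 140.5 CPM in the double knockout. In the first experiment the sum was 116, 80.9 and 62.2 CPM in LIN9 wt and 926, 561 and 346 CPM in LIN9 KO. Slc4a1 was the most abundant of them, with 50.0 to 82.0% of their counts in a library, and Alas2 was at 0.

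Haemoglobin counts per erythroid marker count, a ratio added after the values had been seen, were 120.2, 96.4 and 100.1 in the controls, 79.3, 145 and 101 in LIN9 KO, 108, 86.1 and 109 in Sav1 KO and 128, 97.4 and 75.3 in the double knockout. They were 93.8, 97 and 147 in LIN9 wt and 97.2, 82.6 and 99.9 in LIN9 KO of the first experiment. Since Slc4a1 held at least 50.0% of the marker counts, the ratio rests largely on that gene, which is also in the membrane list. All groups overlapped, while the share of counts behind them ranged from 0.330 to 8.64%.

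**Figure D4:**
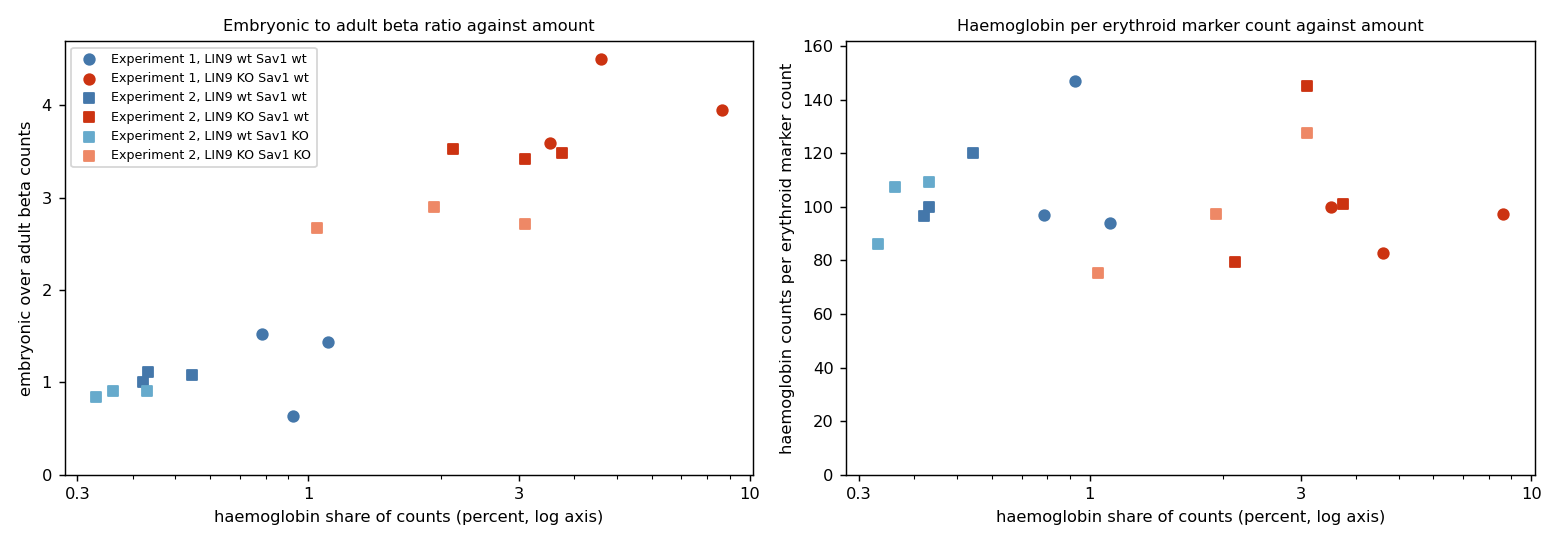
Embryonic over adult beta counts (left) and haemoglobin counts per erythroid marker count (right) against the haemoglobin share of all counts (log axis), for each of the 18 libraries. The left ratio was 2.67 or more in all LIN9 KO libraries and 1.52 or less in all LIN9 wt libraries, and the right ratio overlapped between genotypes.

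Other lists were mixed. Macrophage markers were called higher in 5 of 8 with Sav1 wt and 8 of 8 with Sav1 KO (medians 0.96 and 1.44), and their sum, led by Lyz2, was 132, 137 and 126 CPM in the controls, 266, 225 and 231 CPM in LIN9 KO, 111, 103 and 126 CPM in Sav1 KO and 254, 279 and 297 CPM in the double knockout. Megakaryocyte and platelet markers (2 and 0 of 8 higher by edgeR, medians 0.67 and 0.42, led by Itga2b) summed to 10.96, 17.5 and 15.6 CPM in the controls and 23.3, 30.8 and 27.9 CPM in LIN9 KO. Gp5 of that list had 0 to 4 counts in LIN9 wt and 1 to 5 in LIN9 KO libraries of the second experiment, and passed the filter only through the latter. Endothelial markers were called higher in 2 and lower in 1 of 6 with Sav1 wt and higher in 3 and lower in 1 with Sav1 KO (medians 0.14 and 0.28), and their sum, led by Pecam1, was 885, 901 and 907 CPM in the controls and 1068, 975 and 916 CPM in LIN9 KO. Sav1 KO and double knockout libraries had 18.8, 14.5 and 25.2 and 25.2, 18.7 and 33.4 CPM of platelet markers, and 836, 777 and 842 and 867, 964 and 1042 CPM of endothelial markers.

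Of the muscle markers the ventricular list fell and the atrial list did not. All 6 tested ventricular markers were called lower in both backgrounds (medians -1.01 and -1.09), and their sum, led by Myh7, was 17622, 16856 and 16952 CPM in the controls, 9683, 8499.7 and 6908 CPM in LIN9 KO, 18653, 17384 and 18152 CPM in Sav1 KO and 8306, 8678 and 8672 CPM in the double knockout. Atrial markers, led by Myl4, were called higher in 2 of 5 in both (medians 0.24 and 0.01), with sums of 3323, 2875 and 2881 CPM in the controls, 4479, 3765 and 4042 CPM in LIN9 KO, 2690.1, 2741 and 3128 CPM in Sav1 KO and 3538, 3672 and 4023 CPM in the double knockout. The higher sum came from Nppa, at 490.3, 429.7 and 473 CPM in the controls and 1800.5, 1552 and 1349 CPM in LIN9 KO, whereas Myl4 had 2049.7, 1868 and 1845 CPM and 1978, 1579 and 1733 CPM. Liver markers, listed because the fetal liver makes blood, summed to at most 4.22 CPM in the second experiment and 9.05 CPM in the first, with Ttr the most abundant and Fgb and Serpina1a at 0, and 0 of 1 was called by edgeR in either background. B and T lymphocyte markers, with Cd3e at 0 and Cd79b the most abundant, summed to at most 2.84 CPM, with 0 of 2 called by edgeR. Cd79b had 0 to 2 counts in LIN9 wt and 0 to 7 in LIN9 KO libraries of the second experiment, and passed the filter only through the latter.

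**Figure D5:**
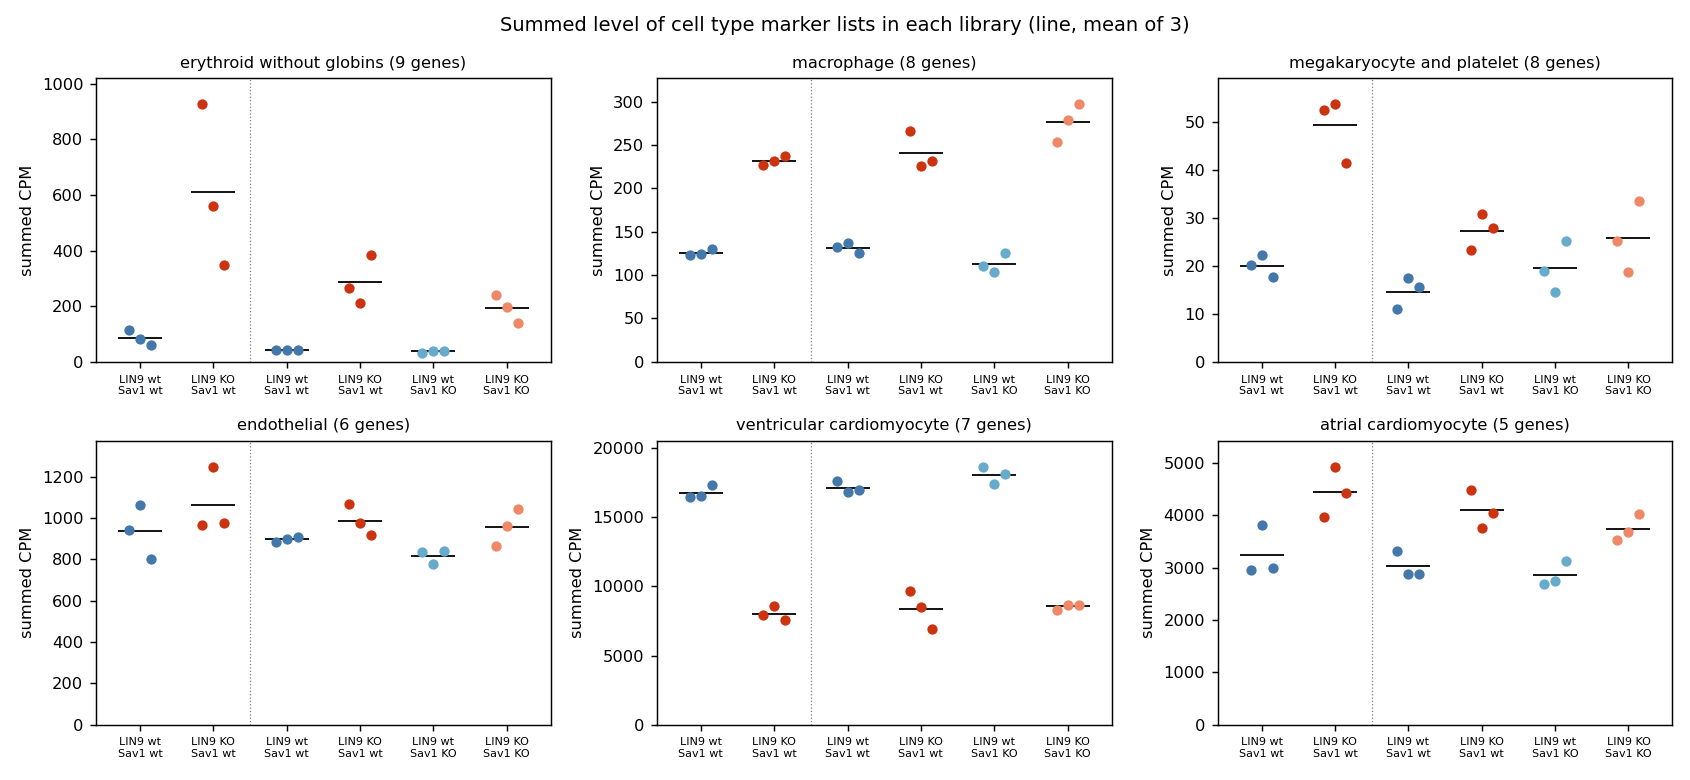
Summed CPM of 6 marker lists in each library, on axes from 0; points are libraries and lines the mean of 3. Erythroid and macrophage sums were higher and ventricular sums lower in every LIN9 KO library than in the LIN9 wt libraries of the same experiment and Sav1 genotype.

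The genes whose pattern was most like summed haemoglobin were found by Pearson's r of log2 CPM over the 12 libraries of the second experiment, among 12387 non-member genes with a mean of at least 5 CPM. Since LIN9 KO and LIN9 wt libraries form separate clusters and share their libraries with haemoglobin, r is a description without a p. The 10 highest were Creg1 (0.988), Hsd3b6 (0.985), Fam46c (0.979), Cyb5a (0.977), Slc4a1 (0.977), Bpgm (0.976), Plin2 (0.975), Rnf181 (0.975), Add2 (0.969) and Xk (0.968). Over the 6 libraries of the first experiment, r was 0.973 or more for 8 of these, as for Bpgm (0.994) and Fam46c (0.994), and lower for Plin2 (0.713) and Rnf181 (0.78).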

How the data were processed

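The counts per gene were used as deposited by the authors, who had aligned the reads to mm10 with TopHat2 2.1.0 and Bowtie2 and then brought the libraries down to equal mappable reads. The log fold change files hold the authors' own comparisons and were not used, and 4 ChIP-seq samples are not analysed here. Of 48713 rows, 4 repeated identifiers with equal counts were kept once. Genes with a mean count above 1 were tested with edgeR 4.0.16 in R 4.3.3 (TMM, robust quasi-likelihood fit, all 12 libraries of the second experiment in 1 model), and p was adjusted by the Benjamini-Hochberg method. SE is the absolute log2 fold change over the square root of F. Alternatives were other size factors, filters, DESeq2 1.42.0, a replicate block, only the libraries compared, and each library left out in turn.

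Members and lists were chosen with earlier results of these data known, the members with those of the first experiment. Counts of called genes in the lists are therefore a description. Summing near-identical copies, the alternatives for the first experiment and the ratio of haemoglobin to marker counts were added after the values had been seen. From each list the most abundant gene and, per LIN9 comparison and direction, up to 2 of the called genes with the smallest p are named, with a few others for what they encode. CPM per kb uses the exonic length in GENCODE M21.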

Additional observations from a re-analysis of the deposited data

Results flagged for a closer look

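Some values of genes and ratios outside the main results went in opposite directions where the same comparison was made in another background or experiment. Myoglobin (Mb) had a mean log2 difference of 0.20 for Sav1 KO with LIN9 wt and of -0.27 with LIN9 KO, and Cygb of 0.22 and -0.66. For both genes neither Sav1 comparison was called by edgeR, and neither was their interaction (-0.45, adjusted p 0.829, for Mb and -1.01, adjusted p 0.761, for Cygb). Hbq1b over adult alpha counts was higher in LIN9 KO by 1.23 on the log2 scale in the first experiment and differed by -0.31 with Sav1 wt in the second, where Hbq1b had 2 to 16 counts per library. The difference was not tested.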

How the results depend on the processing

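Of the 8 members called in LIN9 KO with Sav1 wt, leaving out 1 library left 6 to 8 called, and in the Sav1 KO background 5 to 8, with 5 without Sav1 KO replicate 3 or double knockout replicate 1. Using only the 6 libraries compared left 6 called in the Sav1 KO background. With a replicate block for pairing by number, 7 and 6 stayed called, at adjusted p 0.0529 for Hbb-bt with Sav1 wt and 0.0671 for Hbb-bs and 0.0569 for Hbb-bt with Sav1 KO. For Sav1 KO with LIN9 KO, DESeq2 called 1 member (Hba-x, log2 fold change -0.81, adjusted p 0.00219) against 0 by edgeR. Leaving out 1 library moved the Hbb-bs log2 fold change of that comparison between -0.79 and 0.0269, and the interaction of Hbb-bs between -0.62 and 0.20, of Hbb-bt between -0.49 and 0.34, of Hbb-y between -0.61 and 0.19 and of Hbb-bh1 between -0.38 and 0.63; with the replicate block the Hbb-bt interaction was -0.0331 in place of 0.0101. Lin9 in the double knockout against Sav1 KO moved between -0.33 and 0.0189. Over 20 settings the adjusted p of Hbb-y ran up to 0.0065 with Sav1 wt and 0.0129 with Sav1 KO, and Hbb-y, Hbb-bh1, Hba-x, Hba-a1 and Hba-a2 were called in 20 of 20 in both; Hbb-bs was called in 15 and 12, Hbb-bt in 14 and 13 and Hbq1b in 20 and 18. Genes called over the whole table depended on the setting: for Sav1 KO with LIN9 wt 3, but 22 without a filter, 31 with only the libraries compared and 0 to 7 with 1 library left out; for Sav1 KO with LIN9 KO 2, but 309 without a filter, 84 with the block and 77 by DESeq2, and 0 to 377 with 1 library left out; for the interaction 0, but 17 without a filter and 0 to 64 with 1 library left out. For Hbq1b over adult alpha, pooled counts gave 0.98 in place of -0.15 for LIN9 KO with Sav1 KO, and -1.60 in place of -0.89 for Sav1 KO with LIN9 wt, where the mean of logs left out Sav1 KO replicate 3 with its 0 counts. The cause of these changes was not tested. Differences in share and first-experiment fold changes kept their sign but moved in size with 1 library left out: the share for Sav1 KO between -1.51 and -0.479 points with LIN9 KO and between -0.12 and -0.0526 with LIN9 wt, and Hbb-bs in the first experiment between 0.77 and 1.54. Limits are 3 libraries per group, bulk tissue, near-identical copies, and members selected on the first experiment.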
